A study of Mus musculus with 8 samples.

Results

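The Toll-like receptors that read nucleic acids inside endosomes, with the proteins that carry, couple or accompany them, were followed in the colon of mice with acute graft-versus-host disease. The 10 genes listed were Tlr3, Tlr7, Tlr8, Tlr9 and Tlr13, which encode receptors, and Unc93b1, Myd88, Irak4, Irf5 and Cd180, which encode partners. They were chosen by gene symbol, with earlier results of these data known, and read from the deposited expression table, and 9 of the 10, of 19505 genes in all, had a value (Irak4 is not analysed here). Where a gene had several probe sets, the one used was to be chosen by its mean over the 8 arrays. Each of the 9 had 1 probe set, so this measured value decided nothing.

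All 8 animals were wild-type BALB/c recipients that had been lethally irradiated and had received bone marrow cells and T cells of C57BL/6 donors on day 0. The 4 control mice were given PBS by mouth, and the other 4 received hBD-2 by mouth at 1.2 mg/kg, in both cases from day 0 to day 7, when the whole colon was taken for RNA. hBD-2 is human beta-defensin 2, an antimicrobial peptide of epithelia, and the comparison asks how it altered expression in the diseased colon. Every mouse had been irradiated and transplanted, so all values are from diseased tissue, and RNA of donor cells in the colon was not separated from that of the host. Values are log2 expression units from 1 array per mouse, and a difference is hBD-2 minus PBS, so that a value below 0 is lower in hBD-2 mice.

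Endosomal Toll-like receptors recognise microbial or self nucleic acid that has been taken up or released into endosomes. Tlr3 binds double-stranded RNA, Tlr7 and Tlr8 bind single-stranded RNA and its breakdown products, Tlr9 binds DNA with unmethylated CpG motifs, and Tlr13, which mice have and humans lack, binds a sequence of bacterial ribosomal RNA. Unc93b1 escorts these receptors from the endoplasmic reticulum to the endosome, where proteases trim them. All of them except Tlr3 signal through the adaptor Myd88 and the kinase Irak4, and Irf5 is a transcription factor that this route activates. Macrophages, dendritic cells and B cells are the best known sites of Tlr7 and Tlr9. Macrophages and dendritic cells are those of Tlr13, whereas Tlr3 is also made by epithelial and stromal cells.

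The medians of the 8 arrays lay between 6.77 and 6.82. Markers of intestinal epithelium were abundant in every mouse, with a mean over 12 genes of 11.43 to 11.53 in PBS and 11.4 to 11.59 in hBD-2 mice. Along the first principal component 2 of the hBD-2 arrays, numbers 1 and 3, were at 25.2 and 25.4 and all others at -14.9 to -2.45. In these arrays Hoxd13, a gene of the posterior body axis, was at 6.20 and 6.03, against 4.09 to 4.49 in the others. Values without this pair are given beside each member's result. Over all genes, 8 of 19505 passed an adjusted p of 0.05 by limma, a share of 0.041%.

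Tlr7 and Tlr13 were lower in all 4 hBD-2 mice than in any PBS mouse, whereas Tlr3 and Tlr9 had closely similar values in both groups, and Tlr8 lay between. None of the 9 members passed the adjusted threshold in the whole table. With limma and an unadjusted p under 0.05, 4 of the 9 were lower in hBD-2 mice, against 5.98% of all genes, and 0 were higher, against 5.85%. The groups did not overlap, with hBD-2 lower, in 2 of the 9, against 3.6% of all genes, and in 0 with hBD-2 higher, against 2.8%. Of the 9 differences 8 were below 0, and their median was -0.19, where the median of all genes was 0.012. In whole tissue, fewer cells of a type and less RNA per cell cannot be told apart.

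**Figure D1:**
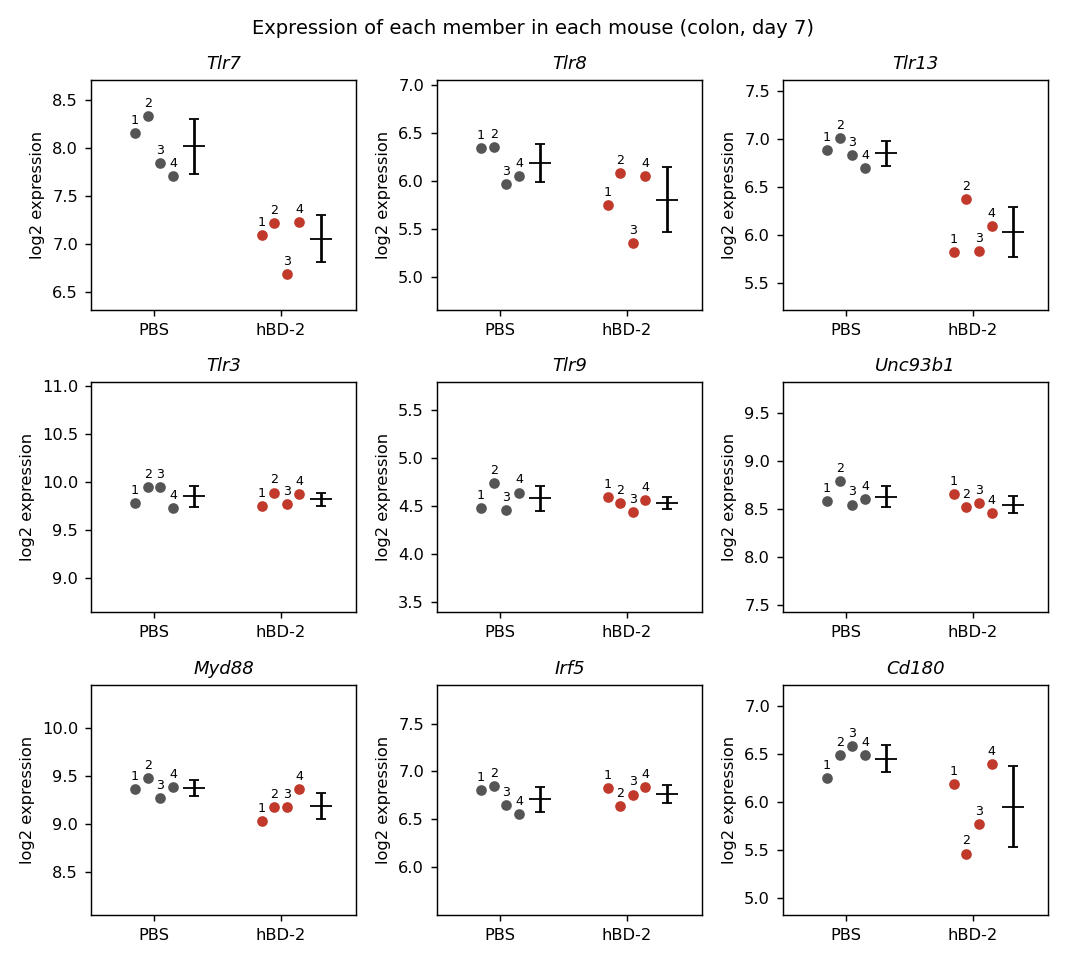
Log2 expression of each of the 9 measured members in each mouse, with PBS in grey, hBD-2 in red, the mouse number above each point, and mean and SD (n = 4) beside the points; every panel spans the same number of log2 units. Tlr7 and Tlr13 separate the groups by 0.48 and 0.31 log2 units, and the groups overlap in the other 7 members.

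Tlr7, the receptor for single-stranded RNA, stood at 8.16, 8.34, 7.85 and 7.71 in PBS 1 to 4 and at 7.10, 7.22, 6.69 and 7.23 in hBD-2 1 to 4. The highest hBD-2 mouse lay 0.48 log2 units below the lowest PBS mouse, and hBD-2 3 was the lowest of all. PBS mice averaged 8.02 ± 0.29 and hBD-2 mice 7.06 ± 0.25 (SD, n = 4 each), a difference of -0.96 (SE 0.16, 95% interval -1.31 to -0.60), or 1.94-fold lower. It did not pass over all genes (adjusted p = 0.0707 by limma), where it ranked 34 by p. Without hBD-2 1 and hBD-2 3 the difference was -0.79 (adjusted p = 0.163 by limma).

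Tlr13, the receptor for bacterial ribosomal RNA, stood at 6.88, 7.01, 6.83 and 6.69 in PBS 1 to 4 and at 5.82, 6.37, 5.83 and 6.09 in hBD-2 1 to 4. The groups were 0.31 log2 units apart, and the lowest values were those of hBD-2 1 and hBD-2 3. PBS mice averaged 6.85 ± 0.13 and hBD-2 mice 6.03 ± 0.26 (SD, n = 4 each), a difference of -0.82 (SE 0.13, 95% interval -1.1 to -0.54), or 1.77-fold lower, with an adjusted p of 0.0634 by limma. Of all genes it ranked 18 by p. The difference was -0.62 (adjusted p = 0.149 by limma) without that pair. With each array left out in turn, the adjusted p by limma ran from 0.0497 (without hBD-2 2, at -0.94) to 0.252 (without PBS 2, at -0.77). It was past the threshold only without hBD-2 2, the hBD-2 mouse with the highest value.

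Tlr8, a close relative of Tlr7, stood at 6.35, 6.36, 5.97 and 6.06 in PBS 1 to 4 and at 5.75, 6.09, 5.36 and 6.06 in hBD-2 1 to 4. Both hBD-2 2 and hBD-2 4 lay within the range of the PBS mice, and hBD-2 1 and hBD-2 3 lay below it. The difference was -0.37 (SE 0.16, 95% interval -0.74 to -0.0087), with an unadjusted p of 0.0456 and an adjusted p of 0.412 by limma. It was -0.35 when hBD-2 1 was left out, -0.22 when hBD-2 3 was, and -0.11 when both were.

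Tlr3, the receptor for double-stranded RNA, stood at 9.78, 9.95, 9.95 and 9.73 in PBS 1 to 4 and at 9.75, 9.89, 9.77 and 9.87 in hBD-2 1 to 4. All 4 hBD-2 values lay inside the PBS range. The difference of -0.035 had a 95% interval from -0.21 to 0.14 and was 0.024 without hBD-2 1 and hBD-2 3. Tlr9, the receptor for CpG DNA, stood at 4.48, 4.74, 4.46 and 4.64 in PBS mice and at 4.59, 4.53, 4.44 and 4.56 in hBD-2 mice. Its difference was -0.049 (95% interval -0.23 to 0.14). It was -0.032 without hBD-2 1 and hBD-2 3, and 0.0036 without PBS 2. Tlr9 was in the lowest 25% of genes by mean value, and whether its signal stood above background cannot be read from these values.

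**Figure D2:**
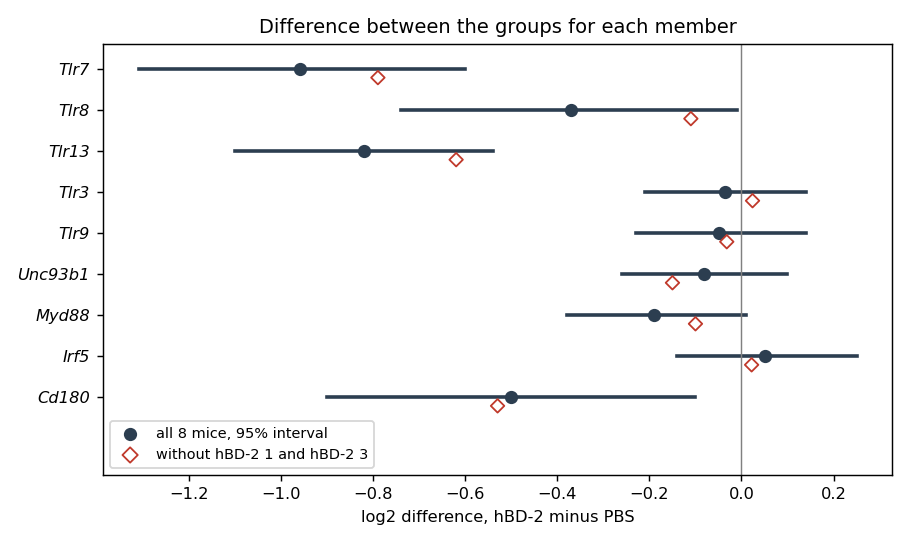
Log2 difference of hBD-2 minus PBS for each member, as a filled circle with its 95% interval from limma over all 8 mice, and as an open diamond without hBD-2 1 and hBD-2 3. Tlr7 and Tlr13 stay far below 0 in both settings, at -0.79 and -0.62 without the pair, while Tlr8 moves from -0.37 to -0.11.

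Whether the receptors differed from one another in their change was tested within mice, as the log2 difference between a pair of receptors compared between the groups. This measure does not depend on the centring of an array. Of the 10 pairs, 6 passed a two-sided exact permutation test adjusted over the pairs (adjusted p = 0.0476 each). Each of the 6 had an exact p of 0.0286, the smallest that a permutation of 4 mice against 4 can give. Tied p-values share an adjusted p, so the 6 could only pass together. Each joins Tlr7 or Tlr13, whose groups did not overlap, with another receptor, so they are not 6 separate results. Tlr7 changed by 0.92 more than Tlr3, by 0.91 more than Tlr9 and by 0.59 more than Tlr8, all in the downward direction. Tlr13 likewise changed downward by 0.79 more than Tlr3, by 0.77 more than Tlr9 and by 0.45 more than Tlr8. In these 6 pairs the groups did not overlap. Since Tlr9 was dim and its signal over background is unknown, the pairs with Tlr9 do not show that Tlr9 itself changed less. Tlr8 and Tlr13 were in the lowest 50% of genes by mean value, and their signal over background is likewise unknown. The pairs with Tlr8 are to be read with that limit.

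The expression of Tlr7 relative to Tlr8 came to 1.83 ± 0.14 log2 units with PBS and 1.25 ± 0.11 with hBD-2 (SD, n = 4 each). These spreads are smaller than those of either gene alone. Tlr7 and Tlr13 differed from each other by -0.14 in their change, from 1.17 ± 0.17 to 1.03 ± 0.21, which did not pass (adjusted p = 0.381, exact permutation test). Tlr8 against Tlr3 and Tlr9 did not pass either (0.34 and -0.32, adjusted p = 0.163 and 0.214, exact permutation test), and Tlr3 against Tlr9 gave 0.014 (adjusted p = 0.886, exact permutation test). With 1 mouse left out the smallest possible exact p is 0.0571, so no pair can pass, and the pairs were chosen with earlier results of these data known.

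**Figure D3:**
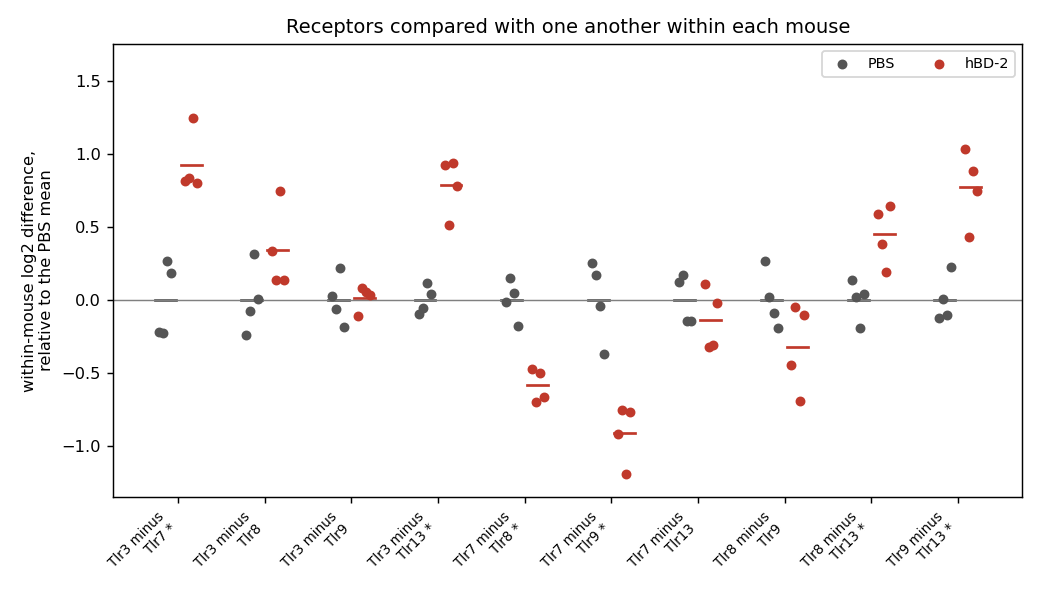
Log2 expression of one receptor minus another within each mouse, for the 10 pairs of receptors, set to a mean of 0 in PBS; points are mice, bars are group means, and an asterisk marks an adjusted p under 0.05 in the exact permutation test. The 6 marked pairs are those that join Tlr7 or Tlr13 with Tlr3, Tlr8 or Tlr9.

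The sequence just before an annotated transcription start is shown for Tlr13, Tlr8 and Tlr9, the 3 receptors with a window before the annotated gene. The size of their difference varied. It was -0.82 in Tlr13, -0.37 in Tlr8 and -0.049 in Tlr9. The groups did not overlap in Tlr13 and overlapped in both Tlr8 and Tlr9. A window was found for 8 of the 10 listed genes, and those of Tlr7 and Unc93b1 are not analysed here. Each sequence is the 250 bases before the start, read 5′ to 3′ on the strand of the gene, from the build GRCm38.p6. The windows of Tlr3 and Irf5 lie inside the annotated gene, before an inner start, so they are not shown and their matches are not described. Capitals mark the matches described after the sequences.

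Tlr13 promoter, chrX:106143025-106143274, plus strand: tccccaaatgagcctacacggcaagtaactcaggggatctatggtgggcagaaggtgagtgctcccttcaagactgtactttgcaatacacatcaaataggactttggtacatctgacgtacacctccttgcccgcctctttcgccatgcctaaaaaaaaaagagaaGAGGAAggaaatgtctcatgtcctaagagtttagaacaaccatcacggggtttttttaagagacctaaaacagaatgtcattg
Tlr8 promoter, chrX:167264330-167264579, minus strand: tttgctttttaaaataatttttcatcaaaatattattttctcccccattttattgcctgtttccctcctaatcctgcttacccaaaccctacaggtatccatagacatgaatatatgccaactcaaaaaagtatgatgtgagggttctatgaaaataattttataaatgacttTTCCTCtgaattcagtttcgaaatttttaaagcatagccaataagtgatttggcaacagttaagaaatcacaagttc
Tlr9 promoter, chr9:106222348-106222597, plus strand: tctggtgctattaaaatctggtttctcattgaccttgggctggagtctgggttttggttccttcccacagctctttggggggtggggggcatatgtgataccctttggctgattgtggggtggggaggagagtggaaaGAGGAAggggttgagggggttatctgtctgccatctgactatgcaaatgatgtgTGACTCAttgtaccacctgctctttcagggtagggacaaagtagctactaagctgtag

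The searched motifs, on both strands, were the core GAGGAA of sites of PU.1, the macrophage and B cell transcription factor encoded by Spi1, its longer form GAGGAAGT (which contains the core), the composite site of interferon regulatory and Ets factors (GGAA, 2 bases of any kind, GAAA), the interferon-stimulated response element (GAAA, 2 bases of any kind, GAAA), the AP-1 site TGANTCA and the NF-kB consensus. The core GAGGAA, whose use was decided after the sequences had been seen, was found in Tlr13 (83 to 78 bases before the start), in Tlr9 (112 to 107) and, on the other strand, in Tlr8 (77 to 72). It occurs in 23.3% of all 32851 windows of this length. The windows of Myd88, Irak4 and Cd180 did not hold the core. Tlr9 also held an AP-1 match, as 6.75% of windows do. The NF-kB consensus, which 7.25% of windows hold, was in none of the 3 shown. Myd88 held a match to the interferon-stimulated response element from 40 to 31 bases before the start, found in 2.98% of windows, and the windows of Cd180 held none of the motifs. A match describes letters in this window and says nothing of binding.

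Among the partners, the shared escort and the transcription factor had similar values in both groups. Unc93b1 stood at 8.59, 8.79, 8.55 and 8.61 in PBS 1 to 4 and at 8.66, 8.52, 8.57 and 8.46 in hBD-2 1 to 4. The groups overlapped, with a difference of -0.081 (95% interval -0.26 to 0.098). Without hBD-2 1 and hBD-2 3 it was -0.15 (unadjusted p = 0.181, adjusted p = 0.592 by limma), and the groups no longer overlapped. Fewer mice separate more easily by chance, and the share of all genes without overlap in that setting is not given. Irf5 stood at 6.81, 6.85, 6.65 and 6.56 in PBS mice and at 6.83, 6.64, 6.76 and 6.84 in hBD-2 mice. It was the single member with a difference above 0, at 0.052 (95% interval -0.14 to 0.25), which was 0.022 without hBD-2 1 and hBD-2 3 and 0.0002 without PBS 4.

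Myd88, the adaptor, stood at 9.37, 9.48, 9.27 and 9.39 in PBS 1 to 4 and at 9.03, 9.18, 9.18 and 9.37 in hBD-2 1 to 4. Of the hBD-2 mice, 3 lay below the lowest PBS mouse and hBD-2 4 lay inside the PBS range. The difference was -0.19 (SE 0.087, 95% interval -0.38 to 0.0093, adjusted p = 0.445 by limma) and -0.10 without hBD-2 1 and hBD-2 3.

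Cd180, a relative of the receptors that sits at the surface of B cells, macrophages and dendritic cells and lacks the intracellular signalling domain, varied most among the hBD-2 mice. It stood at 6.25, 6.49, 6.58 and 6.49 in PBS 1 to 4 and at 6.18, 5.46, 5.77 and 6.39 in hBD-2 1 to 4. The low values were those of hBD-2 2 and hBD-2 3, hBD-2 4 lay inside the PBS range, and the SD was 0.42 in hBD-2 against 0.14 in PBS mice (n = 4 each). The difference was -0.50 (SE 0.18, 95% interval -0.90 to -0.10), with an unadjusted p of 0.0192 and an adjusted p of 0.325 by limma, and -0.53 without hBD-2 1 and hBD-2 3. Its secreted partner Ly86 (MD-1), which Cd180 needs to reach the surface, stood at 8.51, 8.89, 8.30 and 8.10 in PBS mice and at 7.90, 7.59, 7.67 and 8.04 in hBD-2 mice. The groups did not overlap in Ly86, which differed by -0.65 (SE 0.16, adjusted p = 0.187 by limma).

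The members followed different courses across the 8 mice. As a measure of likeness, each gene was centred on its mean over the 8 arrays and compared with every other by the root mean square distance. Among members, Tlr9 and Unc93b1 were closest, at 0.0762 log2 units, both with little variation, and Tlr7 and Irf5 were farthest apart, at 0.54. Tlr7 and Tlr13 were 0.18 apart, while Cd180 was 0.417 from Tlr7 and 0.414 from Tlr13.

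For the 3 members with the largest SD over the arrays, the nearest genes of the whole table were taken. Tlr7 (SD 0.57) was nearest to Pla2g7, a phospholipase that degrades platelet-activating factor (distance 0.133), to the myeloid receptor Clec5a (0.143) and to the Fc receptor signalling chain Fcer1g (0.152). Tlr13 (SD 0.48) was nearest to Ch25h, the cholesterol 25-hydroxylase (0.0949), to the axon guidance receptor gene Robo2 (0.0991) and to Mpdz, a scaffold protein of cell junctions (0.103). Cd180 (SD 0.39) was nearest to Nckap1l, an actin regulator of blood cells (0.131), to Bcl2a1d, a survival gene of the Bcl2 family (0.134), and to Apba1 (0.141). These distances are a description over 8 arrays. Genes near Tlr7 or Tlr13 were picked on the same arrays, so their similar difference between the groups follows from the choice and is not tested.

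**Figure D4:**
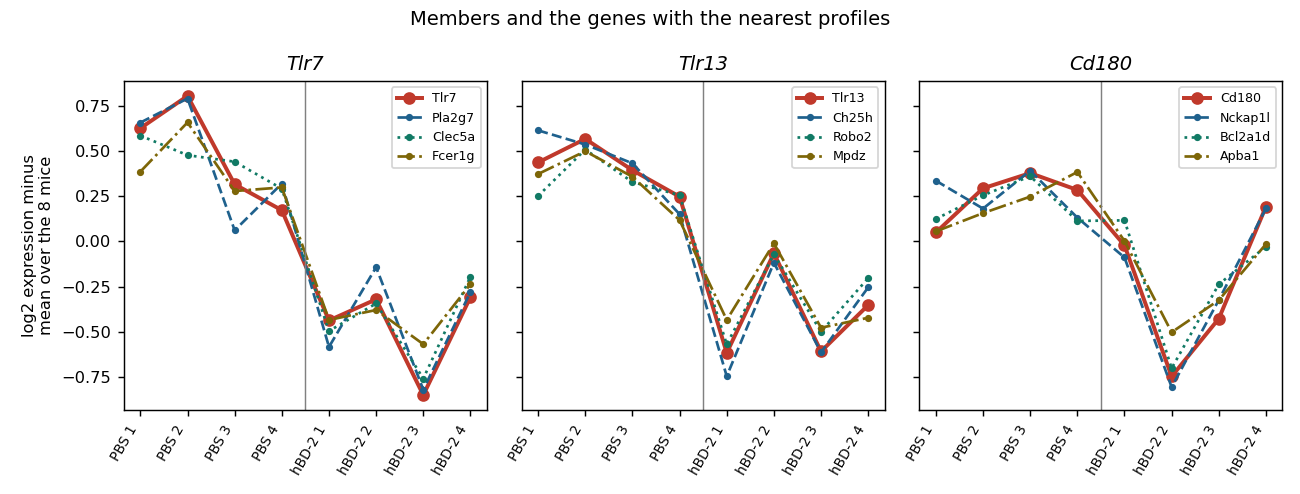
Log2 expression minus the mean over the 8 mice, for Tlr7, Tlr13 and Cd180 (thick red) and the 3 genes of the table with the nearest profile to each; the vertical line parts PBS from hBD-2 mice. Tlr7 is lowest in hBD-2 3, Tlr13 in hBD-2 1 and hBD-2 3, and Cd180 in hBD-2 2.

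The wider pathway was described by 6 lists holding 86 further measured genes. By limma none of the 86 passed in the whole table. With an unadjusted p under 0.05, 18 were lower in hBD-2 mice and 0 were higher, with a median difference of -0.045 over the 86. Each list's count can be set beside the 5.98% of all genes that were lower at that p.

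Genes that process, transport or feed the endosomal receptors held the most differences, with 7 of 15 lower at an unadjusted p under 0.05, 0 higher and a median of -0.095. Slc15a3, a peptide and histidine transporter of the lysosome, stood at 8.75, 8.73, 8.26 and 8.62 in PBS mice and at 7.95, 8.01, 7.83 and 8.23 in hBD-2 mice, without overlap. It differed by -0.58 (SE 0.12, adjusted p = 0.13 by limma). Pld4, a lysosomal exonuclease that degrades single-stranded nucleic acid, differed by -0.48 (SE 0.11, adjusted p = 0.139 by limma), also without overlap. The other 5 were proteases of the endosome and lysosome, namely legumain (Lgmn) at -0.43, Ctsl at -0.47, Ctsk at -0.38, Ctss at -0.23 and Ctsb at -0.23, several of which are known to trim the ectodomains of these receptors. None of the 7 passed the adjusted threshold. The other 8 genes of the list lay between -0.095 (Pld3) and 0.064 (Slc29a3). Among these were the chaperone and trafficking genes Hsp90b1 at -0.044, Cnpy3 at 0.014 and Ap3b1 at 0.004.

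Surface Toll-like receptors and co-receptors gave 1 of 10 lower, which was Ly86, and a median of -0.029. Tlr4, the receptor for lipopolysaccharide, was the next by p, at -0.15 (SE 0.084, adjusted p = 0.523 by limma). Adaptors, kinases and ligases downstream of the receptors gave 2 of 21 lower and a median of 0.028. Those 2 were Pik3ap1, an adaptor that links these receptors to phosphoinositide 3-kinase, at -0.47 (SE 0.11, adjusted p = 0.141 by limma), and the tyrosine kinase Btk at -0.36 (SE 0.15, adjusted p = 0.387). Cytosolic sensors of nucleic acid, which detect it outside endosomes, gave 0 of 9 in either direction and a median of 0.019. The lowest p among them was that of the adaptor Mavs, at 0.11 (SE 0.095), followed by Ddx58 (RIG-I) at -0.13 (SE 0.13), which was 0.038 without hBD-2 1 and hBD-2 3.

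Transcription factors gave 3 of 12 lower and a median of -0.058. Spi1 (PU.1), a master regulator of macrophages and B cells, stood at 10.35, 10.58, 10.32 and 10.40 in PBS mice and at 9.90, 9.88, 9.51 and 9.70 in hBD-2 mice. The groups did not overlap, with a difference of -0.66 (SE 0.10, adjusted p = 0.0634 by limma). Leaving out hBD-2 1 and hBD-2 3 gave -0.62. The NF-kB subunit Rel was at -0.23 and Jun at -0.24. Target cytokines and feedback genes gave 5 of 19 lower and a median of -0.14. The chemokine Ccl3 was at -0.94 (SE 0.15, adjusted p = 0.069 by limma) and Il1b at -1.0 (SE 0.28, adjusted p = 0.219), and the others were Cd80 at -0.43, Tnf at -0.35 and Socs3 at -0.27.

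**Figure D5:**
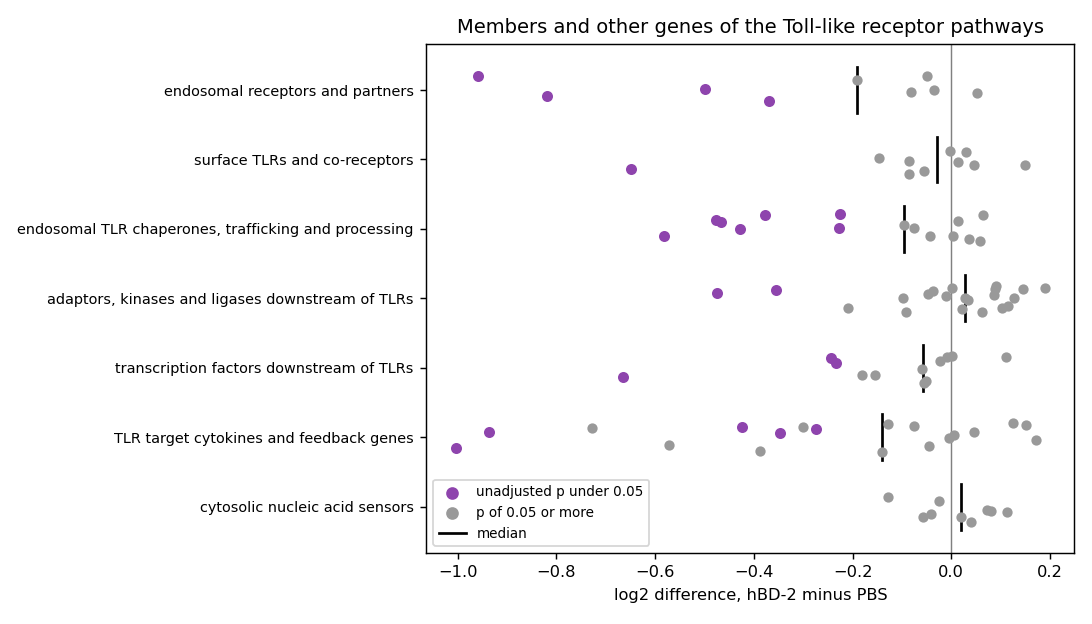
Log2 difference of hBD-2 minus PBS for each measured member and for each measured gene of the 6 pathway lists; purple points have an unadjusted p under 0.05 by limma, grey points do not, and black bars are medians. The purple points all lie below 0, with 4 among the members and 18 among the other genes.

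Markers of the cells that carry these receptors moved unequally. Each count of markers can be set beside all genes, of which 5.98% were lower and 5.85% higher at an unadjusted p under 0.05. Of 11 measured markers of monocytes and macrophages, 9 were lower at an unadjusted p under 0.05 and 0 higher, with a median difference of -0.55 (-0.30 without hBD-2 1 and hBD-2 3). Per mouse their mean level ran from 8.21 to 8.52 with PBS and from 7.72 to 8.02 with hBD-2, without overlap. The mannose receptor Mrc1 was at -0.72 and the complement component C1qa at -0.66. Cx3cr1 went the other way, at 0.11, and Cd163, at -0.23, was not lower at that p. The part of these cells in the values of Tlr7, Tlr13 and Cd180 was not tested.

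B cell markers gave 2 of 9 higher, Fcmr at 0.28 and Cd79b at 0.22, and 0 lower. Their mean level was 5.06 to 5.17 in PBS and 5.16 to 5.30 in hBD-2 mice. Cd79b was dimmer than Tlr9, at a mean of 3.81 in PBS and 4.03 in hBD-2 mice, and its signal over background is unknown. Cr2 went the other way, at -0.20. Markers of plasmacytoid dendritic cells, which are rich in Tlr7 and Tlr9, gave 2 of 9 higher and 0 lower at an unadjusted p under 0.05. The 2 were Cox6a2 at 0.41 and Klk1 at 0.70. Klk1 averaged 10.39 in PBS and 11.1 in hBD-2 mice, far above the mean level of the list. Which cells of the whole colon its value reports is therefore unknown. Over the 9 markers the median difference was 0.0074 (-0.029 without hBD-2 1 and hBD-2 3), and 4 differences were below 0. Their mean level was 6.95 to 7.10 in PBS against 7.06 to 7.25 in hBD-2 mice. Klk1 overlapped between the groups, as hBD-2 4 (10.32) lay within the PBS range of 10.29 to 10.60, and its difference dropped to 0.37 once the hBD-2 1 and hBD-2 3 arrays were removed. Conventional dendritic cell markers gave 2 of 9 lower, Itgax at -0.73 and Clec10a at -0.40, and 1 higher, Flt3 at 0.40, with a median of 0.08 and a mean level of 5.57 to 5.66 against 5.53 to 5.77. Values on an array have no true zero, so none of these markers can be called absent.

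Neutrophil markers gave 4 of 8 lower, led by S100a9 at -0.74 and Mmp8 at -0.83, with a mean level of 5.86 to 6.74 in PBS and 5.75 to 6.21 in hBD-2 mice. T cell markers gave 2 of 9 lower, Cd4 at -0.61 and Cd3d at -0.30, with levels of 7.49 to 7.88 and 7.15 to 7.74. Fibroblast markers gave 6 of 7 lower, led by Vim at -0.54 and Col3a1 at -0.52, with levels of 9.67 to 9.84 and 9.06 to 9.59, without overlap. Endothelial markers gave 5 of 6 lower, led by Cdh5 at -0.48 and Eng at -0.57 (-0.30 without hBD-2 1 and hBD-2 3), with levels of 7.21 to 7.45 and 6.77 to 7.28. Without hBD-2 1 and hBD-2 3 the median went from -0.49 to -0.22 for neutrophil markers and from -0.19 to -0.43 for T cell markers. It went from -0.51 to -0.30 for fibroblast and from -0.39 to -0.32 for endothelial markers. Epithelial markers gave 1 of 12 higher, Cdx1 at 0.21, with Krt18 at -0.16. Posterior colon genes gave 1 of 8 higher, Hoxd12 at 0.36, with Hoxd13 at 0.83 and a median of 0.70. Leaving out hBD-2 1 and hBD-2 3 turned Hoxd13 to -0.085 and the median to -0.18, while Hoxd12 was at 0.39. None of these markers passed over all genes by limma, and their part in the members' values was likewise not tested.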

How the data were processed

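Whole colon RNA of 8 mice, 4 on PBS and 4 on hBD-2 per the sample titles, was measured on Affymetrix arrays with 1 array per mouse. The deposited values are log2 expression per probe set, made by the authors with oligo and RMA per the submitters' processing notes (no version given), which corrects background, applies quantile normalization and summarises probes. An overall shift between mice would therefore not be visible, and precision is limited by the number of arrays. For the array's genome build, the sources used here give nothing.

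Of 22203 probe sets, 19572 named 1 gene, 0 several, and 2631 were unnamed here. The 19505 genes, each by its probe set with the highest mean, were tested with limma 3.58.1 (lmFit, then eBayes, R 4.3.3), two-sided, with Benjamini-Hochberg adjustment over all genes and a threshold of 0.05. Standard errors are moderated. Pairs of receptors were compared by exact permutation over the 35 distinct splits of the mice (scipy 1.17.1). The fit was tested on simulated arrays.

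The named genes are all measured members, the 2 genes with the lowest unadjusted p in each of 6 pathway lists and 10 cell marker lists, and the 3 nearest profiles of each of the 3 most variable members. Other genes past the unadjusted threshold were named after their values were seen. Members, lists and tests were chosen with earlier results of these data known. Alternatives were an intensity trend with robust prior, filters on dim genes, averaged probe sets, 2 further scalings, weights per array, a block on replicate number, and each array left out. The setting without both hBD-2 1 and hBD-2 3 was added once the data had been seen. Promoter sequences come from RefSeq tables of GRCm38.p6. Figures were drawn with matplotlib 3.10.9.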

Additional observations from a re-analysis of the deposited data

Results flagged for a closer look

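Of 82 groups of 4 mice examined, over 41 genes, 3 held a mouse whose gap to its neighbour passed the critical value of Dixon's test, where chance gives about 1 in 20 groups. None was a group of a member. Ccl3 was at 8.90 in PBS 3, against 8.56 to 8.62 in the other PBS mice. Mrc1 was at 9.67 in hBD-2 2, against 9.27 to 9.33 in the other hBD-2 mice. Cdx1 was at 9.96 in hBD-2 3, against 9.73 to 9.75 in the other hBD-2 mice.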

How the results depend on the processing

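Under the other settings tried, Tlr7 and Tlr13 stayed lower in hBD-2 mice, between -1.06 and -0.79 and between -0.94 and -0.62. Both passed the adjusted threshold with an intensity trend and robust prior (-0.96 and -0.82, adjusted p = 0.0135 each by limma) and with array weights (-1.04 and -0.89). Tlr7 also passed without the lowest 50% of genes (-0.96, adjusted p = 0.0418), where fewer genes are tested, which left 4 of the 9 members. Members past the adjusted threshold were then 2, 2 and 1, and of all genes 91, 68 and 47 passed. That number was 16 without the lowest 25% of genes, 4 with quantile normalization repeated, and 0 with the replicate block or without hBD-2 1 and hBD-2 3. Without the lowest 50% of genes, 2 members were lower at an unadjusted p under 0.05 and 1 had groups that did not overlap. Of the pathway genes, 4 passed with the intensity trend, and 2 each with that filter and with array weights. The median of the members was -0.28 without the lowest 25% of genes, and that of the target genes -0.27 and -0.29 without the lowest 25% and 50%.

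Without hBD-2 1 and hBD-2 3, Tlr3 turned to 0.024, Ddx58 to 0.038 and Hoxd13 to -0.085, the medians of surface receptors and of adaptors were -0.11 and -0.039, and 1 pathway gene was higher. The 6 receptor pairs that had passed gave 0.82 (Tlr3 minus Tlr7), 0.64 (Tlr3 minus Tlr13), -0.68 (Tlr7 minus Tlr8), -0.76 (Tlr7 minus Tlr9), 0.51 (Tlr8 minus Tlr13) and 0.59 (Tlr9 minus Tlr13), with an adjusted p of 0.222 each in the exact permutation test, which cannot go below 0.133 before adjustment there. The cause of the other shifts was not tested.

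With each array left out in turn, 0 to 1 members passed the adjusted threshold by limma. At an unadjusted p under 0.05 by limma, 2 to 5 members were lower in hBD-2 mice. The groups did not overlap in 2 to 4 members. Groups of fewer mice separate more easily by chance, and the shares of all genes in these settings are not given. These counts therefore do not show whether the members stand out from other genes there. Of all genes, 0 to 11 passed the adjusted threshold, and 0 to 2 pathway genes were higher at an unadjusted p under 0.05 by limma. Tlr9 ran from -0.088 to 0.0036 and Tlr13 from -0.94 to -0.75. The medians of the processing, adaptor and target lists ran from -0.14 to -0.071, from -0.02 to 0.091 and from -0.28 to -0.064. The pairs ran from 0.81 to 1.01 (Tlr3 minus Tlr7), -0.048 to 0.086 (Tlr3 minus Tlr9), 0.74 to 0.88 (Tlr3 minus Tlr13), -0.65 to -0.54 (Tlr7 minus Tlr8), -1.03 to -0.81 (Tlr7 minus Tlr9), 0.38 to 0.53 (Tlr8 minus Tlr13) and 0.69 to 0.89 (Tlr9 minus Tlr13).

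Mice of the same number correlated in their deviations at -0.152, 0.139, 0.244 and 0.045, and 3 of the 8 correlated best with their own number, so the numbers are not taken as pairs. With the replicate number as a block, Tlr7 and Tlr13 had adjusted p-values of 0.0912 and 0.091 by limma. Centring the arrays moved the median difference of all genes by 0.0198. Signal over background is not known, which limits what can be said of dim genes such as Tlr9.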
